A study of Homo sapiens with 9 samples.

Results

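MALAT1, NEAT1, GAS5, SNHG1, SNHG3, SNHG5, SNHG6, SNHG8, SNHG12 and ZFAS1 are long noncoding RNAs (lncRNAs) that cells transcribe strongly, and they were taken by symbol; the rule itself uses no measured value, though the list was drawn up with earlier results of these data known. All 10 were found among the 63657 Ensembl genes of the deposited table, and all 10 passed the filter on low values, a mean of 1 FPKM over the 4 RNA libraries. FPKM counts fragments for each kilobase of a gene's transcript relative to all mapped ones. The libraries were 2 of MDA-MB-231 cells depleted of LOXL2 by a short hairpin RNA (shLOXL2) and 2 of the same cells with a control hairpin (shControl). LOXL2 is a lysyl oxidase family enzyme. MDA-MB-231 is a mesenchymal-like line from a breast tumour without hormone receptors, and total RNA was the labelled molecule. The labels used here give no time after depletion, hairpin sequence, clone or separate cultures for the replicates. The p-values therefore measure the spread between these libraries, which may be technical. In bulk RNA, fewer cells of a kind and less RNA in each cell cannot be told apart.

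MALAT1 and NEAT1 stay in the nucleus, where MALAT1 gathers in nuclear speckles beside the splicing factors and NEAT1 is the scaffold of paraspeckles. The other 8 are hosts of small nucleolar RNAs (snoRNAs), which are cut from their introns and guide the chemical modification and processing of ribosomal RNA. The spliced host RNA is left as a by-product, is often removed by nonsense-mediated decay, and in many hosts starts with a run of pyrimidines like that of ribosomal protein messages. Both MALAT1 and several of the hosts have been studied as RNAs that breast tumours make in excess.

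LOXL2, the targeted gene, had 15.2 and 12.1 FPKM in the shLOXL2 libraries, against 85.5 and 84.5 FPKM in the shControl libraries (log2 change -2.56, limma adjusted p = 0.0124). The call of LOXL2 was lost without either shControl library, at adjusted p up to 0.157. Of markers of the line, VIM stood at 2104 and 2081 FPKM in shLOXL2 and 2011 and 2053 FPKM in shControl, and all 8 mesenchymal breast cancer markers passed the filter. Of these 8, S100A4 (log2 0.93, limma adjusted p = 0.0115), MSN (log2 0.24, 0.0246) and CAV1 (log2 0.21, 0.0430) rose, and CD44 (log2 -0.39, 0.0172) and EGFR (log2 -0.24, 0.0497) fell. Of 8 epithelial luminal markers 5 were tested, of which KRT18 (log2 0.36, limma adjusted p = 0.0239) and KRT8 (log2 0.30, 0.0435) rose and EPCAM (log2 -0.42, 0.0443) fell. The summed luminal markers stood at 349 and 350 FPKM in shLOXL2 and 278 and 280 FPKM in shControl. Most of each sum came from KRT18 and KRT8. KRT18 stood at 196 and 206 FPKM in shLOXL2 and 158 and 154 FPKM in shControl. KRT8 stood at 146 and 136 FPKM in shLOXL2 and 112 and 116 FPKM in shControl. EPCAM stood at 4.52 and 5.07 FPKM in shLOXL2 and 6.85 and 6.69 FPKM in shControl. The hormone receptors ESR1 and PGR were below 0.1 FPKM in every library. Of 8 fibroblast and 7 haematopoietic markers 2 and 3 passed it, COL1A1 and PDGFRB among the first and CD14, LYZ and CD68 among the second. CD68 stood at 148 and 144 FPKM in shLOXL2 and 136 and 147 FPKM in shControl. CD14 stood at 1.15 and 0.904 FPKM in shLOXL2 and 2.28 and 1.58 FPKM in shControl. LYZ stood at 1.38 and 1.54 FPKM in shLOXL2 and 1.13 and 1.44 FPKM in shControl. None of these passed (limma adjusted p = 0.548, 0.158 and 0.647). PTPRC, under the filter, had 0.113 and 0.992 FPKM in shLOXL2 and 0.261 and 0.257 FPKM in shControl. CD3E, which defines T cells, was listed at 0 in all 4 libraries. COL1A1 rose to 8.02 and 7.43 FPKM in shLOXL2, against 4.12 and 4.73 FPKM in shControl (limma adjusted p = 0.0287), and summed fibroblast markers stood at 12.3 and 10.2 FPKM in shLOXL2 and 5.90 and 7.34 FPKM in shControl. The part of other cells in the results below was not tested. Small RNA genes took 33.5% and 32.7% of the FPKM sum in shLOXL2 and 31.7% and 30.0% in shControl.

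None of the 10 lncRNAs passed the test between shLOXL2 and shControl cells (limma on log2(FPKM + 1), two-sided, adjusted over all 16987 genes tested). By that rule 16.9% of all genes tested were called, 8.35% higher and 8.54% lower, and 8.06% of the 571 lncRNA genes by RefSeq class. At an unadjusted limma p below 0.05 stood 3 of the 10, MALAT1, SNHG3 and ZFAS1, where 35.9% of all genes did. The median log2 change of the 10 was -0.012, beside -0.0041 for all genes tested, with 4 positive and 6 negative. The groups did not overlap for 5 of the 10, MALAT1 and SNHG3 being higher and GAS5, SNHG1 and ZFAS1 lower in shLOXL2, where 64.6% of all genes tested did not overlap. When the libraries were scaled to an equal FPKM sum outside small RNA and mitochondrial genes, ZFAS1 passed toward lower values (adjusted p = 0.0363), and the calls over all genes were 965 higher and 2195 lower in place of 1419 and 1450.

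**Figure D1:**
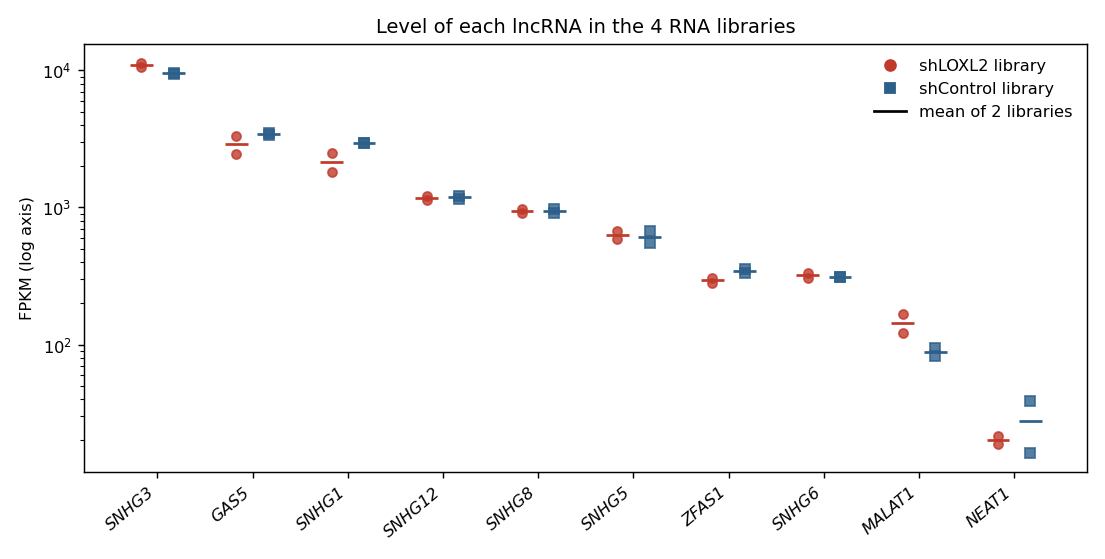
FPKM of each lncRNA on a log axis, with shLOXL2 libraries as circles, shControl libraries as squares and the mean of 2 libraries as a bar. The snoRNA hosts lie between 282 and 11220 FPKM and MALAT1 and NEAT1 between 16.3 and 167 FPKM.

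In level per transcript length, the snoRNA hosts stood far above the nuclear lncRNAs. Outside small RNA and mitochondrial genes, SNHG3 ranked 5 among all genes by its mean over the 4 libraries, GAS5 13, SNHG1 16, SNHG12 65, SNHG8 92, SNHG5 165, ZFAS1 369 and SNHG6 372. MALAT1 ranked 1240 and NEAT1 5631, so that the word abundant fits the hosts by this measure and NEAT1 least. SNHG6 and ZFAS1 overlapped in level across libraries, as did GAS5 and SNHG1, while each other neighbouring pair in that order was apart in all 4 libraries. Within every library GAS5 was above SNHG1, by 1.33 and 1.36 times in shLOXL2 and by 1.18 and 1.13 times in shControl. FPKM of a host can hold fragments of the small RNAs inside it, so these ranks are of the annotated gene and not of its spliced RNA alone.

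MALAT1 (ENSG00000251562) had the largest log2 change of the 10. Its levels were 167 and 120 FPKM in shLOXL2, against 94.6 and 82.4 FPKM in shControl. Both shLOXL2 libraries were above both shControl libraries, and the shLOXL2 libraries also differed from each other, by 1.39 times. On the log2(FPKM + 1) scale MALAT1 differed by 0.68 ± 0.20 (SE, n = 2 per group), 1.60-fold with a 95% interval of 1.07 to 2.39, and it did not pass after adjustment (limma adjusted p = 0.107). Without shLOXL2 replicate 1, the highest library, it was 0.44, and without shLOXL2 replicate 2 it was 0.91. LTBP3, a gene that lies near MALAT1 on chromosome 11, did not pass either, at log2 0.16 (limma adjusted p = 0.421).

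NEAT1 (ENSG00000245532) stood at 18.99 and 21.6 FPKM in shLOXL2, against 39.1 and 16.3 FPKM in shControl. The first shControl library was the highest of the 4 and the second the lowest, 2.40 times apart, so the groups overlapped. The log2 change of -0.31 ± 0.47 (SE, n = 2 per group, limma adjusted p = 0.681) came with an interval of 0.310 to 2.11-fold. NEAT1 was at 0.30 without shControl replicate 1 and at -0.91 without shControl replicate 2, so its sign turned with 1 library. The ratio of MALAT1 to NEAT1 within a library, which no scaling of the library can move, was 8.80 and 5.57 in shLOXL2 and 2.42 and 5.06 in shControl.

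The snoRNA hosts are shown by the 100 bases around their RefSeq start, 50 before it and 50 from it on, since hosts of this class are known for a pyrimidine run at the start. TATAA, the core of the TATA box, was searched ahead of it. RefSeq windows on GRCh38.p14 were used for 7 of the 8 hosts, SNHG6 being left out, and for MALAT1 with 2 starts. Capitals mark TATAA in the 50 bases before the start and the longest run of C and T between 10 bases before and 15 from the start.
SNHG3 (chr1:28505893-28505992, plus strand): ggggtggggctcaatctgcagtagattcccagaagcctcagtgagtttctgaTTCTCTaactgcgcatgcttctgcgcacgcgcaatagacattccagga
GAS5 (chr1:173868996-173869095, minus strand): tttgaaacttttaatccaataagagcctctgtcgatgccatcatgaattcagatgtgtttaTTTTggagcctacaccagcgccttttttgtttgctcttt
SNHG1 (chr11:62855836-62855935, minus strand): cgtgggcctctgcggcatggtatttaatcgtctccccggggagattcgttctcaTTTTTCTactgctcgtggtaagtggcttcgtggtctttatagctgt
SNHG12 (chr1:28581824-28581923, minus strand): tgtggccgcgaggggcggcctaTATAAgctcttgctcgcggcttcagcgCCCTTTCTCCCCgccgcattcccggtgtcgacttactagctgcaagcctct
SNHG8 (chr4:118278712-118278811, plus strand): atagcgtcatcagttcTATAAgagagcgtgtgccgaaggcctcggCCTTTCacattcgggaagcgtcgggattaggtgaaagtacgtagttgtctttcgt
SNHG5 (chr6:85678684-85678783, minus strand): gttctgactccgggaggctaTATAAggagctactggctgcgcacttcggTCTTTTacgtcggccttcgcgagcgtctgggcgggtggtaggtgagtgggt
ZFAS1 (chr20:49278592-49278691, plus strand): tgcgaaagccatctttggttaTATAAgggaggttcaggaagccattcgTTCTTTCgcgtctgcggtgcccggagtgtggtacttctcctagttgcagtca
TATAA stood ahead of the start on the gene's strand in 4 of the 7 hosts, SNHG12, SNHG8, SNHG5 and ZFAS1, and at the second start of MALAT1, where 4.74% of all 35116 windows hold it so (6.08% on either strand). A run of at least 5 pyrimidines stood between 10 bases before and 15 from the start in 6 of the 7 hosts. It reached 12 bases in SNHG12, and 43.4% of all windows have one. The longest runs of SNHG3 and SNHG1 began after the start, at bases 3 and 5. Each also has a shorter, unmarked run of 5 pyrimidines. It lies directly before the start in SNHG3 (tttct) and across the start in SNHG1 (ttctc). GAS5 has its longest run there at 4 bases, and this says only that these letters are not at the RefSeq start used. These matches describe the windows and show no binding or start site in these cells.

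SNHG3 (ENSG00000242125) had the highest FPKM of the 10 and hosts SNORA73A and SNORA73B, H/ACA snoRNAs that take part in ribosomal RNA processing. It stood at 10594 and 11220 FPKM in shLOXL2, against 9423 and 9621 FPKM in shControl. Both shLOXL2 libraries were above both shControl libraries, by a fold of 1.14 (95% interval 1.03 to 1.28, limma adjusted p = 0.0959). With quantile normalization its log2 change was -0.023 in place of 0.20. SNORA73B stood at 7130 and 8200 FPKM in shLOXL2, against 6394 and 6534 FPKM in shControl, and did not pass (log2 0.24, limma adjusted p = 0.153). SNHG3 was thus 1.49 and 1.37 times SNORA73B in shLOXL2 and 1.47 and 1.47 times in shControl. RCC1, which encodes the exchange factor of the GTPase Ran and lies next to SNHG3, fell to 49.8 and 50.1 FPKM in shLOXL2, against 59.8 and 64.3 FPKM in shControl (log2 -0.31, limma adjusted p = 0.0397). The ratio of SNHG3 to RCC1 was 213 and 224 in shLOXL2 and 158 and 150 in shControl. SNHG3 transcripts can read through into RCC1, and fragments they share would be uncertain.

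GAS5 and SNHG1, hosts of 10 and 8 listed C/D box snoRNAs, both had their lowest value in the same shLOXL2 library. GAS5 (ENSG00000234741), which also binds the glucocorticoid receptor and builds up in growth-arrested cells, had 3315 and 2463 FPKM in shLOXL2, against 3487 and 3356 FPKM in shControl. SNHG1 (ENSG00000255717) had 2498 and 1806 FPKM in shLOXL2, against 2952 and 2957 FPKM in shControl. For both, shLOXL2 replicate 2 was the lowest library, and the groups did not overlap. The shLOXL2 libraries were 1.35 times apart for GAS5 and 1.38 times for SNHG1, more than the shControl libraries. GAS5 had a log2 difference of -0.26 ± 0.17 (limma adjusted p = 0.360) and SNHG1 one of -0.48 ± 0.18 (limma adjusted p = 0.169, SE, n = 2 per group). Without shLOXL2 replicate 2 these were -0.045 and -0.24, and without shLOXL2 replicate 1 they were -0.47 and -0.71.

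SLC3A2, the heavy chain of the CD98 amino acid transporter, starts beside SNHG1. It fell to 367 and 331 FPKM in shLOXL2, against 517 and 520 FPKM in shControl (log2 -0.57, limma adjusted p = 0.0239). The ratio of SNHG1 to SLC3A2 was 6.80 and 5.46 in shLOXL2 and 5.71 and 5.68 in shControl, and these ranges overlap. WDR74, beside SNHG1 as well, stood at log2 -0.12 and did not pass (limma adjusted p = 0.0784), and ZBTB37 beside GAS5 stood at log2 -0.11 (limma adjusted p = 0.434).

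SNHG12 and SNHG8 overlapped between the groups and kept a steady ratio to each other. SNHG12 (ENSG00000197989), which hosts SNORA44, SNORA61, SNORA16A and SNORD99, had 1141 and 1214 FPKM in shLOXL2, against 1219 and 1155 FPKM in shControl. SNHG8 (ENSG00000269893), the host of SNORA24, had 905 and 973 FPKM in shLOXL2, against 975 and 918 FPKM in shControl. The ratio of SNHG12 to SNHG8 was 1.26 and 1.25 in shLOXL2 and 1.25 and 1.26 in shControl. The 95% interval of the fold ran from 0.888 to 1.11 for SNHG12 (limma adjusted p = 0.898) and from 0.878 to 1.12 for SNHG8 (limma adjusted p = 0.907), which bounds a change on this scale without showing that there was none. SNORD99, inside SNHG12, stood at 1017 and 964 FPKM in shLOXL2, against 836 and 713 FPKM in shControl, with no overlap and a log2 change of 0.36 that did not pass (limma adjusted p = 0.0955). PRSS12, the neurotrypsin gene beside SNHG8, fell to 18.7 and 18.2 FPKM in shLOXL2, against 22.4 and 21.5 FPKM in shControl (limma adjusted p = 0.0443).

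SNHG6 and SNHG5 also overlapped between the groups. SNHG6 (ENSG00000245910), the host of SNORD87, had 308 and 335 FPKM in shLOXL2, against 312 and 313 FPKM in shControl. The 95% interval of its fold was 0.918 to 1.15 (limma adjusted p = 0.663). SNORD87 was listed at 71.6 FPKM in shLOXL2 replicate 1 and at 0 in the other 3 libraries. SNHG5 (ENSG00000203875), the host of SNORD50A and SNORD50B, had 677 and 591 FPKM in shLOXL2, against 676 and 549 FPKM in shControl. In each group its first replicate was the higher one, and the fold had an interval of 0.780 to 1.38 (limma adjusted p = 0.819). The log2 changes of both were close to 0 and turned negative with quantile normalization and with an equal sum, and their sign also turned with some libraries left out.

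ZFAS1 (ENSG00000177410) hosts SNORD12, SNORD12B and SNORD12C, and in the mouse mammary gland it restrains growth of the epithelium. It had 282 and 306 FPKM in shLOXL2, against 331 and 355 FPKM in shControl. Both shLOXL2 libraries were below both shControl libraries, at a fold of 0.856 (95% interval 0.749 to 0.980), with a log2 change of -0.22 ± 0.066 that did not pass (SE, n = 2 per group, limma adjusted p = 0.110). SNORD12B fell to 623 and 614 FPKM in shLOXL2, against 1022 and 856 FPKM in shControl (log2 -0.60, limma adjusted p = 0.0436). SNORD12C fell to 549 and 521 FPKM in shLOXL2, against 786 and 713 FPKM in shControl (log2 -0.48, limma adjusted p = 0.0318). SNORD12 stood at 512 and 364 FPKM in shLOXL2, against 574 and 534 FPKM in shControl, also with no overlap, and did not pass (log2 -0.36, limma adjusted p = 0.287). Of all small RNA genes tested, 5.27% were called lower. The ratio of ZFAS1 to SNORD12 was 0.550 and 0.841 in shLOXL2 and 0.577 and 0.665 in shControl, and these ranges overlap. The ratio to SNORD12B was 0.452 and 0.499 in shLOXL2 and 0.324 and 0.415 in shControl, and that to SNORD12C 0.513 and 0.588 in shLOXL2 and 0.421 and 0.498 in shControl. The difference between the log2 changes of ZFAS1 and its snoRNAs was not tested.

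ZNFX1, an RNA-sensing helicase gene to which ZFAS1 is antisense, was higher. It rose to 44.6 and 42.6 FPKM in shLOXL2, against 33.9 and 34.3 FPKM in shControl (log2 0.35, limma adjusted p = 0.0245). The ratio of ZFAS1 to ZNFX1 was 6.31 and 7.19 in shLOXL2 and 9.78 and 10.4 in shControl. No source used here says whether the authors counted by strand, so fragments of the overlapping ends of ZFAS1 and ZNFX1 cannot be told apart. With an equal FPKM sum the call of ZNFX1 was lost (log2 0.27, adjusted p = 0.0603). With any 1 library left out, SNORD12B, SNORD12C and ZNFX1 lost their calls (adjusted p from 0.105 for ZNFX1 to 0.193 for SNORD12B) and kept their direction. Of the 28 named genes that passed, 27 lost their call in all 4 of these fits, LOXL2 being the exception, and each fit has 1 residual degree of freedom in place of 2. Of the same 28, 20 lost their call without the filter on low values and 17 when the variance prior had no trend, SNORD12B (adjusted p = 0.0992 and 0.0633), SNORD12C (0.0758 and 0.0517), RCC1, PRSS12 and SNHG16 among both.

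**Figure D2:**
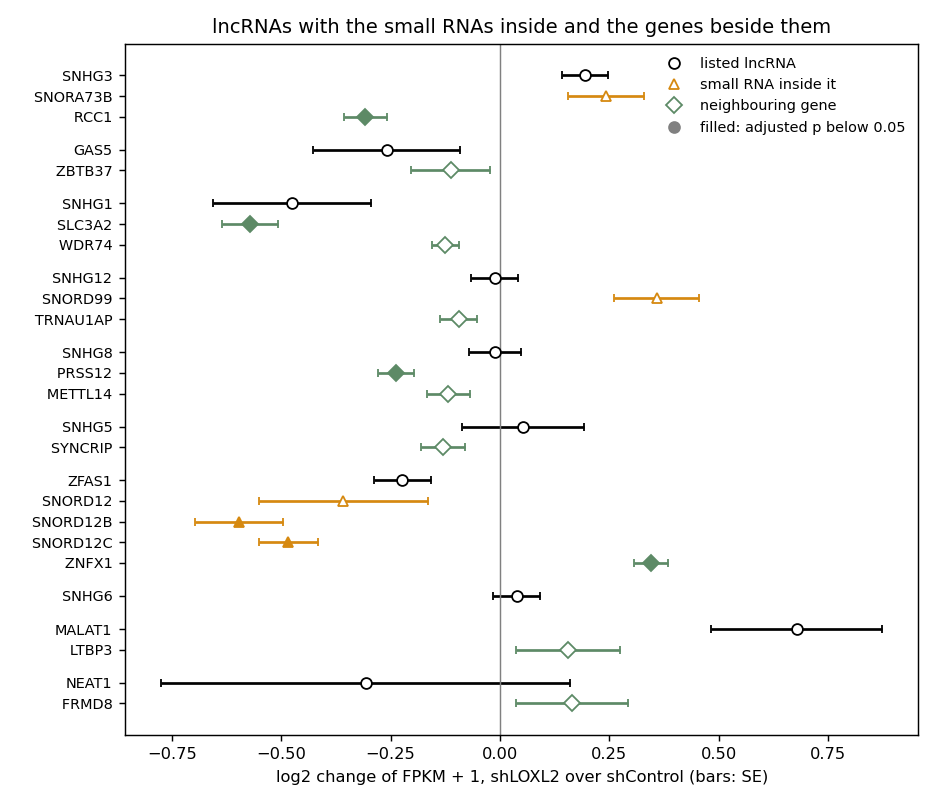
Log2 change of each lncRNA (circles), the small RNAs inside it (triangles) and the genes beside it (diamonds), shLOXL2 over shControl with SE bars, filled where the adjusted p is below 0.05. SNORD12B and SNORD12C, RCC1, SLC3A2, PRSS12 and ZNFX1 are filled and none of the lncRNAs is; SNORD87, with an SE of 2.35, is left out.

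Only 8 of 32 small RNAs listed as nested in the 10 lncRNAs had 1 unambiguous identifier among the genes of the table, 6 of these were tested and 2 were listed at 0 in all 4 libraries. The 2 at 0 were SNORD79 of GAS5 and SNORD29 of SNHG1, and an exact 0 can be a failed estimate. Of 11 neighbouring genes tested, 1 rose and 3 fell, and 5 were at an unadjusted p below 0.05, beside 8.35% higher, 8.54% lower and 35.9% unadjusted over all genes. TRNAU1AP, SYNCRIP, METTL14 and FRMD8 did not pass, at log2 -0.095, -0.13, -0.12 and 0.16, and TCF24 beside SNHG6 was under the filter.

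**Figure D3:**
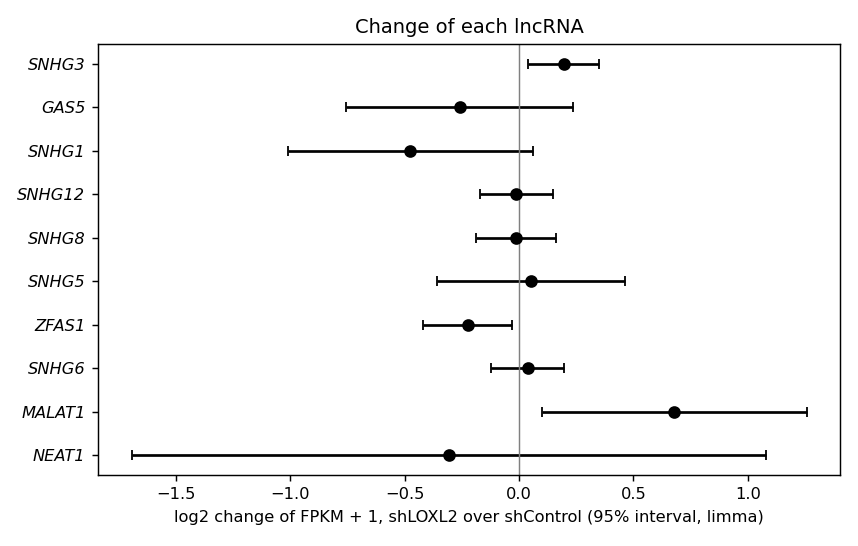
Log2 change of each lncRNA, shLOXL2 over shControl, with its 95% interval from limma, ordered by mean FPKM. The intervals of SNHG3, ZFAS1 and MALAT1 do not reach 0 before adjustment, and NEAT1 has the widest, from -1.69 to 1.08.

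The 10 lncRNAs had a wider median gap between replicates than all genes, in both groups. The median absolute log2 difference between the shLOXL2 libraries was 0.15 over the 10 and 0.088 over all genes tested. MALAT1, GAS5 and SNHG1 lay above the 90th percentile of all genes there. Between the shControl libraries these medians were 0.082 and 0.071, and NEAT1 alone of the 10 was above the 90th percentile. Summed over the 8 hosts, FPKM was 19719 and 18908 in shLOXL2 and 19376 and 19224 in shControl, and these ranges overlap. SNHG3, at 10594 and 11220 FPKM in shLOXL2 and 9423 and 9621 FPKM in shControl, was the largest part of each sum. SNHG3 was higher in shLOXL2, while GAS5, SNHG1 and ZFAS1 were lower and the other hosts overlapped. The sum therefore does not stand for each host.

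Other snoRNA host lncRNAs were tested in the same way. Of 17 tested, 3 fell and 1 rose, where 8.54% of all genes were called lower and 8.35% higher. The middle log2 change of the 17 was -0.089. SNHG16, the host of SNORD1A, SNORD1B and SNORD1C, fell to 86.2 and 79.4 FPKM in shLOXL2, against 186 and 146 FPKM in shControl (log2 -0.99, limma adjusted p = 0.0345, and 0.0522 when the variance prior had no trend). SNHG9 fell to 108 and 102 FPKM in shLOXL2, against 150 and 140 FPKM in shControl (log2 -0.46, limma adjusted p = 0.0245). SNHG32 fell to 284 and 298 FPKM in shLOXL2, against 348 and 343 FPKM in shControl (log2 -0.25, limma adjusted p = 0.0388). EPB41L4A-AS1, the host of SNORA13, rose to 70.7 and 67.5 FPKM in shLOXL2, against 58.1 and 58.9 FPKM in shControl (log2 0.24, limma adjusted p = 0.0422). The call of EPB41L4A-AS1 was lost with quantile normalization (adjusted p = 0.0529) and with an equal sum (adjusted p = 0.150). SNHG29, at 7679 and 8297 FPKM in shLOXL2 and 7423 and 9470 FPKM in shControl, ranked next below SNHG3 and did not pass (limma adjusted p = 0.763). Of 30 protein-coding hosts, which include ribosomal protein genes, 3 fell and 0 rose while 17 had a positive log2 change; over all genes 8.54% were called lower and 8.35% higher. Those that fell were NOP56 (log2 -0.34), NCL, the nucleolin gene (log2 -0.20), and GNL3, the nucleostemin gene (log2 -0.19), at limma adjusted p of 0.0166, 0.0353 and 0.0475.

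Among 19 other lncRNAs tested, 2 rose and 3 fell. Over all genes 8.35% were called higher and 8.54% lower, and 8.06% of the 571 lncRNA genes were called in either direction. NORAD, a cytoplasmic RNA that binds Pumilio proteins, rose to 76.0 and 72.4 FPKM in shLOXL2, against 55.9 and 55.6 FPKM in shControl (log2 0.41, limma adjusted p = 0.0198). MIR4435-2HG rose to 101 and 104 FPKM in shLOXL2, against 69.7 and 74.2 FPKM in shControl (log2 0.50, limma adjusted p = 0.0191). MIR4435-2HG and CYTOR are near-identical copies, so the split of fragments between them is uncertain, and CYTOR, at log2 0.37, did not pass (limma adjusted p = 0.0576). OIP5-AS1 fell to 12.5 and 13.3 FPKM in shLOXL2, against 19.2 and 19.2 FPKM in shControl (log2 -0.54, limma adjusted p = 0.0175). DLEU2, which holds the microRNA genes MIR15A and MIR16-1, was at log2 -0.61 (limma adjusted p = 0.0278) and the overlapping DLEU1 at log2 -0.30 (limma adjusted p = 0.0411), and fragments of these overlapping genes are uncertain.

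Of 18 tested genes for proteins that build snoRNPs, the particles of snoRNA and protein, 4 fell and none rose. Over all genes 8.54% were called lower and 8.35% higher. The median log2 change of the 18 was -0.14. NOP56, a core C/D box protein also counted above as a host, fell to 295 and 294 FPKM in shLOXL2, against 372 and 372 FPKM in shControl (limma adjusted p = 0.0166). SHQ1, the chaperone of the H/ACA protein dyskerin, fell to 13.9 and 14.2 FPKM in shLOXL2, against 21.9 and 20.3 FPKM in shControl (log2 -0.55, limma adjusted p = 0.0195). TCOF1, which encodes treacle, was at log2 -0.40 (limma adjusted p = 0.0367) and the H/ACA assembly factor NAF1 at log2 -0.25 (limma adjusted p = 0.0465). The methyltransferase FBL, with 220 and 228 FPKM in shLOXL2 and 189 and 203 FPKM in shControl, was at log2 0.19 and did not pass (limma adjusted p = 0.0960).

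Of 20 nonsense-mediated decay factors tested, 2 fell and none rose, the median log2 change being -0.031, a share near the 8.54% of all genes called lower. SMG8 (log2 -0.29, limma adjusted p = 0.0445) and SMG9 (log2 -0.35, limma adjusted p = 0.0487), partners of the kinase SMG1, were those that fell, while UPF1, the central helicase, stood at log2 -0.16 (limma adjusted p = 0.323) and SMG1 at 0.031 (limma adjusted p = 0.750). NAF1, SMG8 and SMG9 also lost their calls with quantile normalization (adjusted p = 0.0689, 0.0586 and 0.0507) and with a pseudocount of 5 FPKM (0.0563, 0.0512 and 0.0518). Of 20 translation genes with pyrimidine starts 0 passed (limma, 9 at an unadjusted p below 0.05, where 35.9% of all genes stood). Of these 20, 15 had a positive log2 change and the median was 0.098. RACK1 was at 3551 and 3807 FPKM in shLOXL2 and 3254 and 3309 FPKM in shControl. With an equal FPKM sum its log2 change was 0.083 in place of 0.16, beside a median of -0.0759 over all genes tested. The median of the 20 under that scaling is not given here. The direction of NPM1, at log2 0.0046, turned with scaling.

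Of 18 tested genes for paraspeckle proteins, the partners of NEAT1, 1 rose and 3 fell, at a median log2 of -0.062. Over all genes 8.35% were called higher and 8.54% lower. NONO, a core paraspeckle protein, rose to 536 and 556 FPKM in shLOXL2, against 472 and 456 FPKM in shControl (log2 0.23, limma adjusted p = 0.0420), a call that was lost with quantile normalization (adjusted p = 0.0628) and with an equal sum (adjusted p = 0.0616). DAZAP1 (log2 -0.47), HNRNPR (log2 -0.22) and RBMX (log2 -0.20) fell, at limma adjusted p of 0.0172, 0.0323 and 0.0485. Of 25 genes for nuclear speckle and SR proteins 1 fell, PNN, which encodes pinin (log2 -0.30, limma adjusted p = 0.0298), and the median was -0.0041. Of 7 RNAs without a poly(A) tail tested 0 passed (limma, 2 at an unadjusted p below 0.05, where 35.9% of all genes stood). RNY1 was at 3970 and 3964 FPKM in shLOXL2 and 3821 and 3576 FPKM in shControl.

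**Figure D4:**
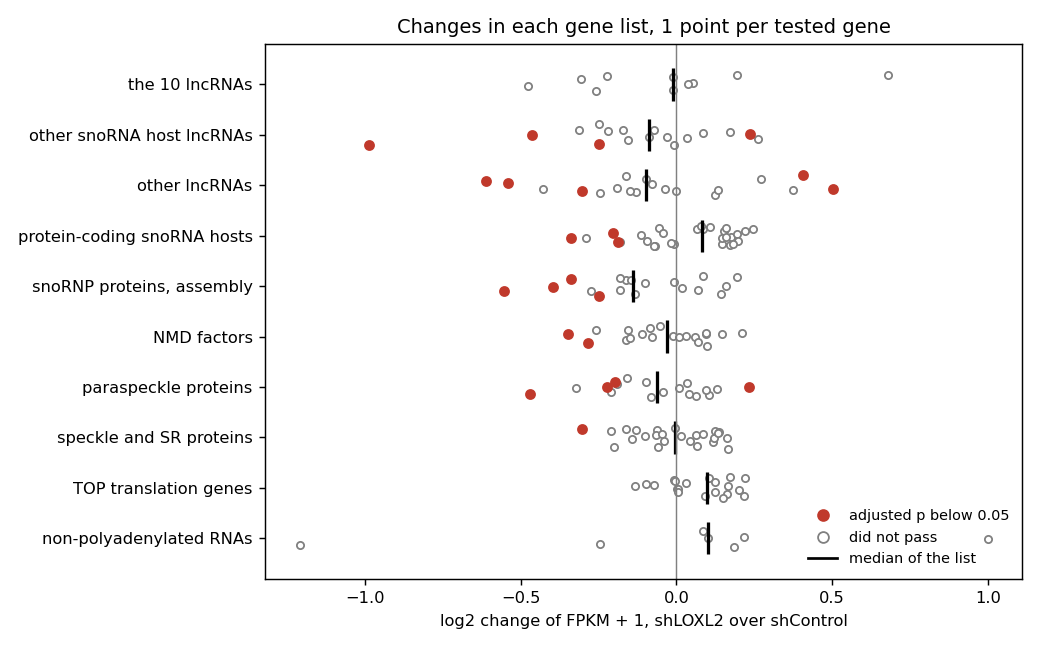
Log2 change of every tested gene in each list, shLOXL2 over shControl, with filled points where the adjusted p is below 0.05 and a bar at the list's median. The 10 lncRNAs have no filled point, while SNHG16 is the lowest of the other hosts at -0.99.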

How the data were processed

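RNA of 2 shLOXL2 and 2 shControl libraries was analysed, with groups and replicate numbers taken from the sample titles. The authors deposited these as FPKM per gene and library in 1 table. The submitters' processing notes list Bowtie, Cufflinks and GRCh37 and no version; the annotation, strand use and filters are not stated there. Columns of group means or fold changes were left aside, as were the ChIP-seq and ATAC-seq peak lists, since no GRCh37 gene positions were used here. Because FPKM keeps no read counts, depth is unknown and intervals for counting error are not given. Some zeros may be failed estimates: EEF1A1, which every cell uses, is at 0 in all 4 libraries.

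Symbols came from Ensembl identifiers, 87.5% of tested genes having one. Values were fitted as log2(FPKM + 1) with limma (intensity trend, two-sided, Benjamini-Hochberg, threshold 0.05) over the 16987 genes whose mean reached 1 FPKM, a scale that understates changes of low genes. The fit was tested on simulated data. RefSeq windows of GRCh38.p14 gave the sequences. From the lists, 1 neighbouring gene and 1 haematopoietic marker were removed and are not reported here. The 10 lncRNAs and the lists were chosen with earlier results of these data known. Named genes were the 10, LOXL2, every nested small RNA or neighbour that passed and, outside the marker lists, up to 4 called genes per list with the smallest p, or the 2 of highest FPKM where none passed; markers, CYTOR, DLEU1, SNHG29, FBL, UPF1, SMG1 and the other neighbours and small RNAs with values were added after their values were seen. The tools were limma 3.58.1 in R 4.3.3, with pandas 2.3.3 and numpy 2.4.6 in Python 3.11.15.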

Additional observations from a re-analysis of the deposited data

How the results depend on the processing

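None of the 10 lncRNAs passed, as reported or under any alternative run, except ZFAS1 with an equal FPKM sum outside small RNA and mitochondrial genes, which made 1 of the 10 lower. Over all alternatives the adjusted p ran from 0.0709 to 0.370 for MALAT1, 0.0585 to 0.637 for SNHG3 and 0.0363 to 0.348 for ZFAS1. Counts over all genes were 601 higher and 542 lower without a filter on low values, 926 higher with a variance prior without a trend, 2195 lower with an equal sum, and from 18 to 220 higher and from 70 to 217 lower with 1 library left out. With the replicate block 0 genes were higher and 0 lower by limma, with 5519 at an unadjusted p below 0.05. That fit had 1 residual degree of freedom. Over 16987 genes, same-numbered libraries did not deviate together (r = -0.0013). This value cannot show whether same-numbered libraries were prepared together, which the labels do not say.

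Signs turned for changes near 0. With quantile normalization the log2 change was -0.023 for SNHG3, -0.028 for SNHG5, -0.024 for SNHG6, -0.036 for RNY1 and -0.041 for NPM1. With an equal sum it was -0.028 for SNHG5, -0.043 for SNHG6 and -0.077 for NPM1, beside a median of -0.0759 over all genes tested. With 1 library left out it ran from -0.91 to 0.30 for NEAT1, -0.097 to 0.20 for SNHG5, -0.024 to 0.0997 for SNHG6, -0.064 to 0.040 for SNHG8, -0.056 to 0.033 for SNHG12 and -0.057 to 0.067 for NPM1. The cause was not tested. Of the 28 named genes that passed, 20 lost their call without a filter and 17 without a trend, SNHG16, SNORD12B and SNORD12C among both. Unknown depth limits what can be said of short genes.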
